A study of Mus musculus with 2 samples.

Results

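The PGC-1 coactivators and the oestrogen-related receptors they work with were followed across the nuclei of injured mouse muscle. The set held 6 genes: Ppargc1a and Ppargc1b, which encode PGC-1α and PGC-1β, the receptor genes Esrra, Esrrb and Esrrg, and Perm1, a muscle regulator that is also a target of both. The genes were matched by symbol, each to 1 of the 32285 genes counted. Nuclei were sequenced from the tibialis anterior (a shin muscle) 5 days after the femoral artery had been ligated. The mice were males between 16 and 20 weeks of age in which chronic kidney disease had been induced. One library was labelled AHRfl/fl (homozygous for a loxP-flanked Ahr gene, AHRtm3.1Bra/J) and one AHRmKO. Both labels give the same cross, that Ahr allele with Tg(ACTA1-cre/Esr1*)2Kesr/J, a transgene in which a skeletal actin promoter drives a Cre recombinase fused to a mutant oestrogen receptor. Such a Cre acts in muscle fibres after tamoxifen, and whether the AHRfl/fl mice carried it, how tamoxifen was given and how many animals were pooled are not given in the sources used here. With 1 library per group there is no replicate, so no difference was tested, and every interval is a 95% interval for counting error only.

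PGC-1α does not bind DNA itself. It docks on nuclear receptors and other factors, and with the oestrogen-related receptors it turns on genes of mitochondria, fatty acid oxidation and, in muscle, the angiogenic factor Vegfa. Oxidative fibres are known to hold more of it than fast glycolytic ones, and exercise, cAMP and calcium signals raise its transcription.

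The libraries labelled AHRfl/fl and AHRmKO held 19056 and 9015 barcodes of 2000 or more unique molecular identifiers (UMIs, each 1 captured RNA molecule), with medians of 3803.5 and 3596 UMIs. They shared 43 of these barcodes (0.226% and 0.477%). Of the set, 6 of 6 genes reached the minimum of 30 UMIs over both libraries in fibre nuclei. Fibre nuclei, those with at least 1% of their UMIs from Ttn, Neb, Trdn and Dmd, numbered 5144 and 3771, and levels (UPM) are UMIs per 1000000 UMIs of a class. By their myosin heavy chain UMIs, fibre nuclei were split into adult (80% or more from Myh4, Myh1, Myh2 and Myh7, 268 and 693 nuclei), developmental (under 20%, the rest from Myh3 and Myh8, which regenerating fibres use, 1776 and 1241) and mixed (2780 and 875). Those with under 3 such UMIs numbered 320 and 962. Ahr itself was at 31.0 UPM in fibre nuclei of the AHRfl/fl-labelled library and at 27.7 in the other (log2 ratio -0.16, -0.32 to -0.01). A 3′ gene count does not show whether the loxP-flanked exon is present, so this value does not check the labels.

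Of the 6 genes, 5 had an upstream window in RefSeq (GRCm38.p6, 250 bases before to 50 bases after a transcription start). The 3 below are shown because they differ in TGACG, the core of the cAMP response element, through which CREB and ATF proteins are known to act on Ppargc1a. The capitals mark that core on either strand, so CGTCA is its reverse complement. The sequences run 5′ to 3′ on the strand of the gene and stop before the first annotated base of the transcript. They come from chr5:51567727-51567975 (minus strand) for Ppargc1a, chr12:86360867-86361116 (plus strand) for Esrrb and chr19:6921814-6922058 (minus strand) for Esrra.
Ppargc1a: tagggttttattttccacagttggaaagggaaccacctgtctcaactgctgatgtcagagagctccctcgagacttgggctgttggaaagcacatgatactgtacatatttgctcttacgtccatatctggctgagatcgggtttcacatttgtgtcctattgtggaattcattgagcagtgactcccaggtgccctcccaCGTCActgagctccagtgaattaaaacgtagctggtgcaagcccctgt
Esrrb: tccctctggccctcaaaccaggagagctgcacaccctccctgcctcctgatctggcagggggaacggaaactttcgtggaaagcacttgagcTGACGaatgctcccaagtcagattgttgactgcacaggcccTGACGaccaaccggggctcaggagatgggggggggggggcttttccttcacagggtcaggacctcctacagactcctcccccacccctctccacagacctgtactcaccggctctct
Esrra: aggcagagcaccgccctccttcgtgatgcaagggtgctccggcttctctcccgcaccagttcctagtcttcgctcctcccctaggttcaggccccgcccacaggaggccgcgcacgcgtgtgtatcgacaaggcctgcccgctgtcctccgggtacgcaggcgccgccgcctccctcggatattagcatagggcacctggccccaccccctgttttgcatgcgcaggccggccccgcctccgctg
The core occurred 1 time in the stretch printed for Ppargc1a, 2 times in that for Esrrb and 0 times in that for Esrra. Each stretch is from the first listed window of its gene, and other windows of the set are not printed. The core lay in 2 of the 9 windows of the 5 genes (22.2%), near the 20.8% of all 32851 windows. The Esrra stretch was the richest of the 3 in G and C, at 68.6% with 22 CpG pairs, against 48.2% and 5 for Ppargc1a and 60.8% and 6 for Esrrb. The extended element that oestrogen-related receptors bind, TNAAGGTCA, was searched on both strands and lay in 1.28% of all windows. It was in 0 of the 9 windows of these genes, 0 of the 2 of Vegfa and 0 of the 41 of 31 mitochondrial and fatty acid target genes, which says only that these letters are not in those windows.

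Ppargc1a lies on GRCm38 chromosome 5, 51454250 to 51567726 (ENSMUSG00000029167). It was at 166.6 UPM (162.1 to 171.2, 5115 UMIs) in fibre nuclei of the AHRfl/fl-labelled library and at 94.7 (90.4 to 99.2, 1765 UMIs) in those of the AHRmKO-labelled library. The log2 ratio of the second to the first, with 0.5 UPM added to each, was -0.81 (-0.89 to -0.74). The gene was at its highest in fibre nuclei in both libraries. Leukocytes, taken as a class that should lack it, had 6.39 and 3.01 UPM. Satellite cell nuclei had 17.0 and 12.1, fibroblasts 6.53 and 5.86 and endothelial nuclei 9.48 and 5.46. The satellite cell class was set by markers of satellite cells or myoblasts, among them Pax7, Myf5 and Myod1, so it may hold myoblasts. Adipocytes, another cell type that uses PGC-1α, held 61.3 (39.7 to 90.5) and 44.8 (24.5 to 75.2). Barcodes of 200 to under 500 UMIs, taken as free RNA from broken cells, were at 23.9 and 31.0 UPM, above all these classes except fibres and adipocytes. These 79956 and 138289 barcodes may also hold nuclei of low depth, which was not tested. A minimum of 1000 UMIs took adult nuclei from 268 to 297 in the AHRfl/fl-labelled library and from 693 to 1353 in the other. Barcodes of 1 to 100 UMIs, also taken as free RNA, had the libraries in the other order for Ppargc1a, at 42.3 and 25.6 UPM. A Ppargc1a UMI was seen in 38.7% and 22.8% of fibre nuclei and in 2.07% and 1.24% of leukocytes, with median depths of 5137.5 and 3885 UMIs in fibre nuclei against 2978 and 3233 in leukocytes.

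Ppargc1b (chromosome 18, 61298136 to 61400431) encodes the sister coactivator PGC-1β, which drives much the same mitochondrial genes. It differed little between the libraries in fibre nuclei, at 297.1 UPM (291.1 to 303.3) and 249.1 (242.0 to 256.4), a log2 ratio of -0.25 (-0.31 to -0.20). Its level was less tied to fibres: adipocytes had 304.2 and 358.5 UPM and satellite cell nuclei 161.5 and 179.2. In fibre nuclei with 5% or more of their UMIs from the 4 fibre genes its log2 ratio turned to 0.09, so no direction is drawn for it.

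**Figure D1:**
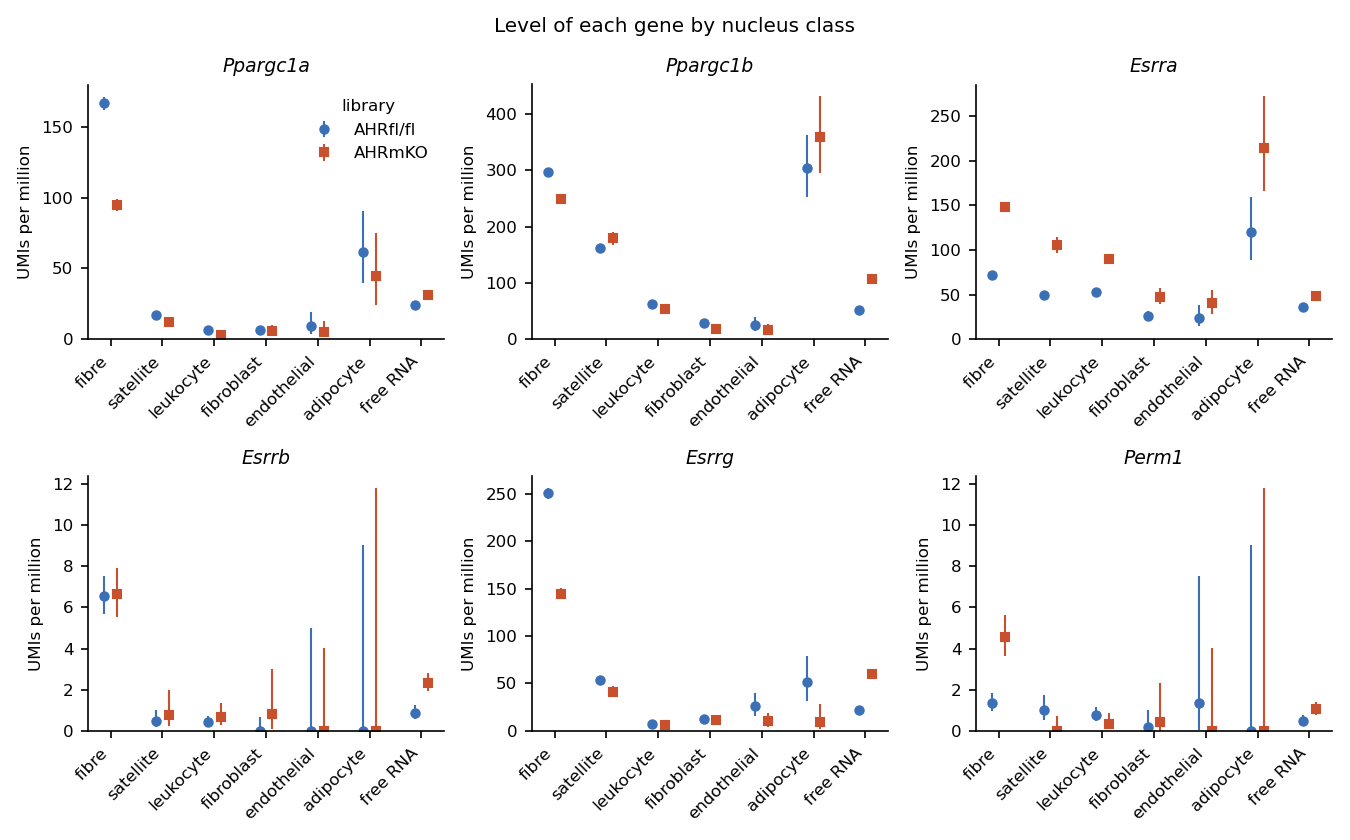
Level of each of the 6 genes, in UPM, in 6 classes of nuclei and in free RNA (barcodes of 200 to under 500 UMIs), for the libraries labelled AHRfl/fl (circles) and AHRmKO (squares), with 95% Poisson intervals. Esrra sits higher in the AHRmKO-labelled library in every class drawn, while Ppargc1a and Esrrg sit lower in its fibre nuclei.

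Among the receptors, Esrra had the opposite sign to Ppargc1a and the same sign in every class. Esrra (chromosome 19, 6910977 to 6921813) encodes ERRα, the receptor most widely found in tissues. In fibre nuclei it was at 71.9 UPM (69.0 to 75.0) in the AHRfl/fl-labelled library and at 147.9 (142.4 to 153.5) in the other, a log2 ratio of 1.03 (0.96 to 1.12). The same held outside fibres: the log2 ratio was 1.08 (0.92 to 1.26) in satellite cell nuclei, 0.75 (0.64 to 0.87) in leukocytes, 0.84 (0.48 to 1.21) in fibroblasts and 0.83 (0.28 to 1.40) in adipocytes. In endothelial nuclei it was 0.72, with an interval from -0.12 to 1.63. Esrra was thus higher in all 6 classes, in endothelial nuclei within counting error, and free RNA was higher too (36.3 and 48.6 UPM, log2 ratio 0.42). Trmt112, a methyltransferase cofactor gene, overlaps Esrra on the opposite strand and had the opposite sign in every class. It was at 11.3 and 3.92 UPM in fibre nuclei (log2 ratio -1.41) and at 13.4 and 3.09 in leukocytes (-1.95). The sources used here do not give the strand setting of the count, so reads of this pair may not be separable. Summed with Trmt112, Esrra still had a log2 ratio of 0.86 (0.79 to 0.95) in fibre nuclei and 0.47 (0.37 to 0.58) in leukocytes, but -0.12 (-0.80 to 0.57) in endothelial nuclei. The sum was at 0.98 in adult, 0.97 in mixed and 0.86 in developmental fibre nuclei, and at 0.83 in satellite cell nuclei. Each of these, like the value over all fibre nuclei, is under 2-fold. Esrra is thus called 2-fold higher there only when counted alone. In nuclei with few myosin UMIs the sum was at 1.004, just past 2-fold, with an interval from 0.69 to 1.34.

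Esrrg (chromosome 1, 187608791 to 188214885) encodes ERRγ, which is known for oxidative muscle and for promoting capillary growth when overexpressed there. In fibre nuclei it was at 250.5 UPM (244.9 to 256.2) in the AHRfl/fl-labelled library and at 144.7 (139.3 to 150.3) in the other. Its log2 ratio of -0.79 (-0.86 to -0.73) was close to that of Ppargc1a. Satellite cell nuclei had 53.7 and 41.1 UPM and adipocytes 51.5 and 9.60 (21 and 3 UMIs, log2 ratio -2.36, -4.81 to -0.68). The remaining classes had at most 25.7, against 21.5 and 59.97 in free RNA. Gm36388, a gene that overlaps Esrrg on the opposite strand, was at 3.16 and 0.38 UPM in fibre nuclei.

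Esrrb (chromosome 12, 86361117 to 86521628) encodes ERRβ, best known from stem cells and the inner ear. It was rare, at 6.55 UPM (201 UMIs) and 6.65 (124 UMIs) in fibre nuclei, which leaves a log2 ratio of 0.02 (-0.31 to 0.35). Leukocytes, satellite cell nuclei and fibroblasts had at most 0.84 UPM and free RNA 0.87 and 2.35. None was counted in endothelial nuclei or adipocytes. With a limit of 3 counts, a count of 0 there allows up to 4.06 and 3.28 UPM and up to 7.36 and 9.60 UPM. The last 2 are above the fibre level, and the exact intervals used for levels reach higher. Perm1 (chromosome 4, 156215868 to 156221307) was the rarest, with 42 UMIs in fibre nuclei of the AHRfl/fl-labelled library (1.37 UPM, 0.99 to 1.85) and 85 in the other (4.56 UPM, 3.64 to 5.64). Its log2 ratio was 1.44 (1.19 to 2.31). In the AHRfl/fl-labelled library that level was near those of satellite cell nuclei (1.02 UPM) and leukocytes (0.76).

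Over all 16740 genes counted in fibre nuclei, 7.91% were at least 2-fold higher and 16.4% at least 2-fold lower in the AHRmKO-labelled library, with a median log2 ratio of -0.07. These shares depend on the settings: over the alternatives the count of higher genes ran from 1165 to 3566, the latter with free RNA subtracted, and that of lower genes from 1451 to 3190, against 1324 and 2751 here. Of the 6 genes, 2 were at least 2-fold higher (Esrra and Perm1) and 0 at least 2-fold lower. Esrra is close to the 2-fold line, at 0.99 with nuclei thinned to 2000 UMIs, and Ppargc1a reached -1.002 at 5% or more fibre RNA, so both counts move by 1 under these. The lowest value of Esrra was 0.96 in developmental and in satellite cell nuclei, also under the line. In satellite cell nuclei 1 of the 4 members counted was higher (Esrra, against 4.25% of genes) and 0 lower (16.2%). Summed with Trmt112, Esrra was under 2-fold there (0.83) and in all fibre nuclei (0.86). In leukocytes 0 of 4 were higher (2.86%) and 0 lower (20.2%). In free RNA 3 of the 6 were higher (10.3% of genes) and 0 lower (25.8%).

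The make-up of the fibre nuclei differed between the libraries, and several members differed by myosin state. Along the adult share of myosin UMIs, Ppargc1a and Esrrg were lowest at the developmental end in both libraries and Ppargc1b was lowest at the adult end (193.8 and 124.4 UPM). Esrra lay between 57.1 and 82.5 UPM in one library and between 137.1 and 194.5 in the other. In the AHRfl/fl-labelled library, Ppargc1a was at 107.4 UPM in developmental nuclei, 184.5, 203.0 and 257.8 in the 3 steps between, and 253.6 in adult nuclei. In the AHRmKO-labelled library it went from 42.1 over 115.8, 176.0 and 152.8 to 261.8. The libraries lay apart at the developmental end. At the adult end the size of the difference depended on the settings, with 148.8 and 314.6 UPM at 5% or more fibre RNA and 306.4 and 415.0 with free RNA subtracted. Of 12 alternatives 10 kept the sign of the adult log2 ratio, and the lowest was -0.10. Esrrg went from 157.4 UPM in developmental to 293.0 in adult nuclei in the AHRfl/fl-labelled library, with its highest level, 411.3, in the step just before. In the AHRmKO-labelled library it went from 60.4 to 391.8.

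**Figure D2:**
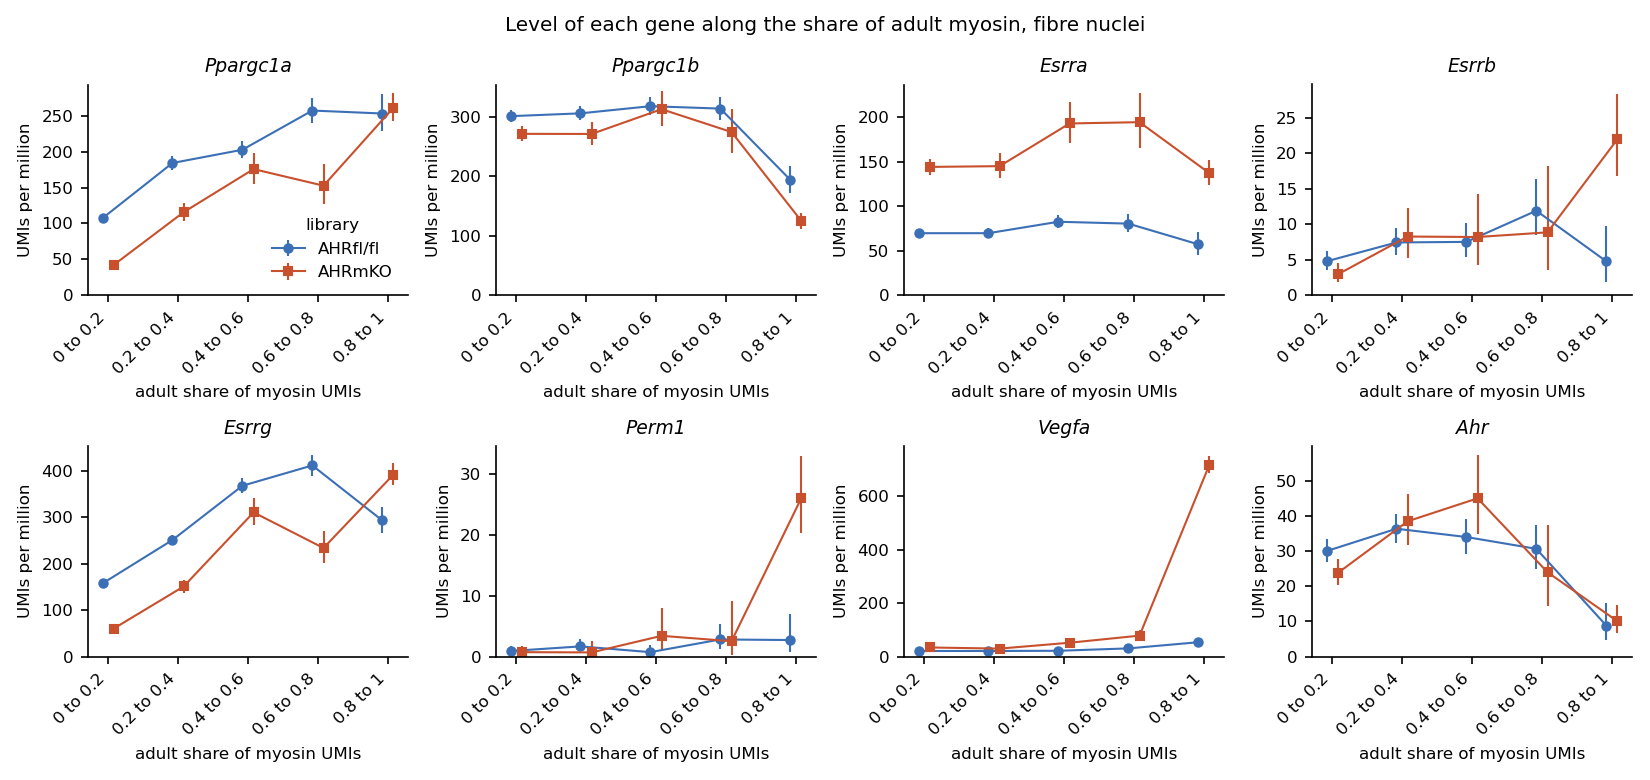
Level of the 6 genes, of Vegfa and of Ahr (UPM, 95% Poisson intervals) in fibre nuclei, by the share of myosin UMIs from adult genes, from developmental (left) to adult (right), for both libraries. Ppargc1a and Esrrg are lowest at the left in both libraries, and Perm1, Esrrb and Vegfa are highest in the last step of the AHRmKO-labelled library.

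Within the AHRmKO-labelled library, adult over developmental nuclei had log2 ratios of 2.62 for Ppargc1a, 2.69 for Esrrg, 2.72 for Esrrb (59 and 20 UMIs) and 4.43 for Perm1 (70 and 5 UMIs). These 4 genes were at least 2-fold higher, as were 11.4% of all genes counted. Ppargc1b, at -1.12 (-1.30 to -0.95), was the 1 member at least 2-fold lower, as were 17.2% of all genes, and Esrra was at -0.07 (-0.25 to 0.10). In the AHRfl/fl-labelled library the same contrast gave 1.24 (1.07 to 1.41) for Ppargc1a, the 1 member at least 2-fold higher against 5.99% of all genes, and 0.89 for Esrrg, with 0 lower (10.4%). It gave -0.63 for Ppargc1b, -0.28 (-0.63 to 0.04) for Esrra and 0.00 (-1.38 to 1.14) for Esrrb. The values of the AHRfl/fl-labelled library rest on fibre nuclei of weak fibre content. Among nuclei with 5% or more of their UMIs from the 4 fibre genes (98 adult and 49 developmental), the ratio turned to -0.99 for Ppargc1a and -0.97 for Esrrg.

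Compared between the libraries within 1 myosin state, Ppargc1a in adult nuclei was at 253.6 UPM (228.5 to 280.7) and 261.8 (242.8 to 281.9), a log2 ratio of 0.05 (-0.14 to 0.23). In developmental nuclei it was at 107.4 and 42.1 (-1.34, -1.54 to -1.16) and in mixed nuclei at 204.2 and 138.6 (-0.56). In nuclei with few myosin UMIs it was at 72.0 and 14.5 (-2.27), a ratio that turned to 0.90 at 5% or more fibre RNA (7 and 31 nuclei). Esrrg was higher in adult nuclei, at 293.0 and 391.8 UPM (0.42, 0.26 to 0.58), and lower in developmental nuclei, at 157.4 and 60.4 (-1.38, -1.54 to -1.23). Ppargc1b had ratios of -0.64 in adult and -0.15 in developmental nuclei, and Esrra of 1.26, 1.13 and 1.04 in adult, mixed and developmental nuclei.

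Perm1, the muscle-specific target and partner of the set, was at 2.72 UPM (4 UMIs in 268 nuclei) and 26.1 UPM (70 UMIs in 693 nuclei) in adult nuclei, a log2 ratio of 3.04 (1.84 to 5.18). Esrrb was at 4.76 (7 UMIs) and 22.0 (59 UMIs), a ratio of 2.10 (1.07 to 3.58). In mixed nuclei neither differed beyond counting error, at 0.10 (-1.14 to 1.27) for Perm1 and 0.01 (-0.52 to 0.51) for Esrrb. In adult nuclei 10.1% of the 10252 genes counted were at least 2-fold higher and 14.9% lower. In mixed nuclei 1 of 6 members was higher (Esrra, against 5.41% of genes) and 0 lower (17.7%). In adult nuclei 3 of the 6 members were at least 2-fold higher (Esrra, Esrrb and Perm1) and 0 lower. Summed with Trmt112, Esrra was under 2-fold in adult (0.98), mixed (0.97) and developmental nuclei (0.86). In developmental nuclei, with 5 members counted, 1 was higher (Esrra, against 6.17% of genes) and 2 were lower (Ppargc1a and Esrrg, against 16.5%). The all-gene counts by state also depend on the settings. Over the alternatives, developmental nuclei had 774 to 2580 higher genes (873 here) and 1041 to 2511 lower (2342). Mixed nuclei had 757 to 2241 (810) and 1188 to 2989 (2644), and adult nuclei 853 to 1341 (1040) and 911 to 1958 (1531).

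**Figure D3:**
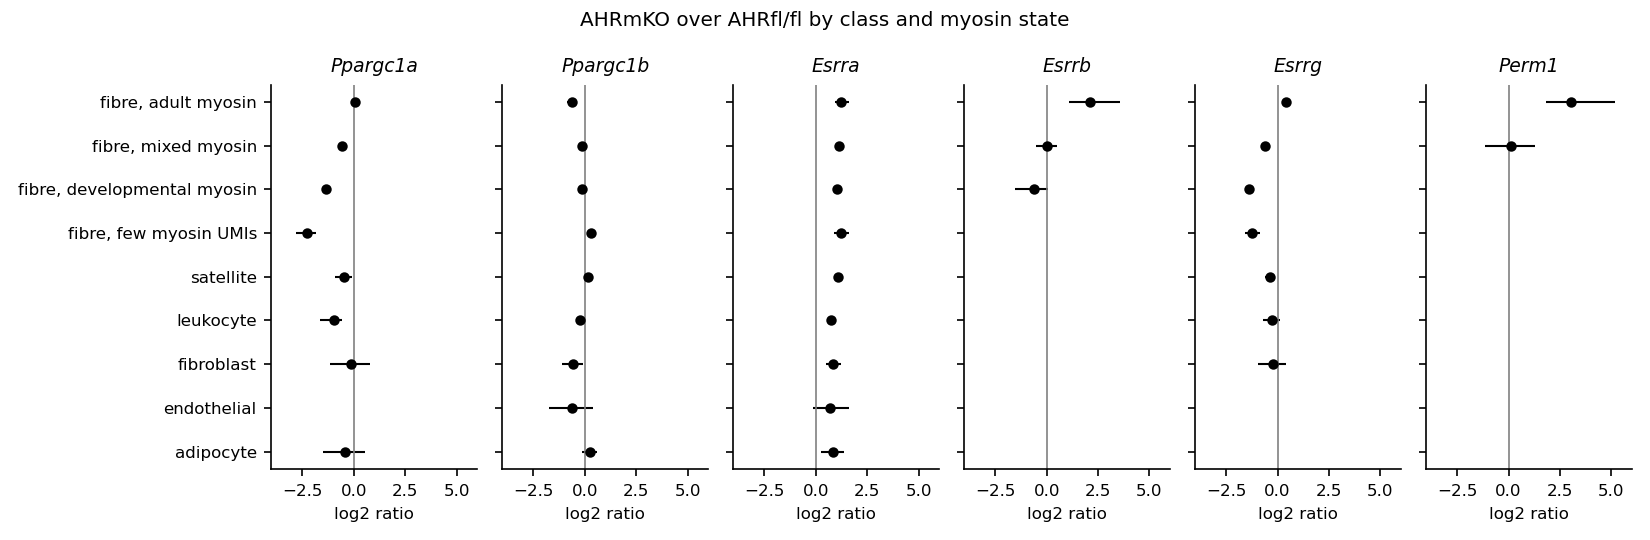
Log2 ratio of the AHRmKO-labelled library over that labelled AHRfl/fl (horizontal axis, with 95% counting intervals) for each gene in 4 states of fibre nuclei and 5 other classes, where at least 30 UMIs were counted. Esrra is right of 0 in all 9 rows, and Ppargc1a and Esrrg shift from about 0 or above in adult nuclei to -1.34 and -1.38 in developmental nuclei.

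The adult nuclei of the libraries were not alike in other respects. Free RNA was estimated to make up 21.3% of the UMIs of adult nuclei in the AHRfl/fl-labelled library and 54.9% in the other. The estimate used 12 leukocyte marker genes, such as Ptprc and Csf1r, and counted all their RNA in fibre nuclei as free. It took the barcodes of 200 to under 500 UMIs as free RNA. Those barcodes may also hold nuclei of low depth. Barcodes below that range were not tried, and the part of doublets in these shares was not tested. With free RNA subtracted in this way, the log2 ratio was 0.44 for Ppargc1a and 0.77 for Esrrg. Adult nuclei of the AHRfl/fl-labelled library were deeper (medians of 4836.5 and 3086 UMIs) and had less RNA of the 4 fibre genes (4.26% and 8.01% of UMIs). They had more of the 6 genes of immature myonuclei such as Myog and Mymk (0.291% and 0.0637%, with 0 of the 6 at 0 in either). The part of these in the results was not tested. With a stricter adult share of 0.9, Ppargc1a had a log2 ratio of 0.44 and Esrrg of 1.24, and with 5% or more fibre RNA they had 1.08 (148.8 and 314.6 UPM) and 1.38 (175.7 and 457.0 UPM). Over the alternatives Ppargc1a in adult nuclei ran from -0.10 to 1.08, with 10 of the 12 above 0. In nuclei with few myosin UMIs, where Pax7, a satellite cell gene, was at 75.1 and 574.3 UPM, Esrrg was at 91.6 and 38.8 UPM. Its log2 ratio there, -1.23, turned to 2.65 at 5% or more fibre RNA.

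Within adult nuclei the levels of some members also differed by the myosin gene in use, for fewer of them in the AHRfl/fl-labelled library. Myh4 marks the fastest glycolytic fibres (type IIb), and Myh1 (IIx) and Myh2 (IIa) the more oxidative ones. In the AHRmKO-labelled library, Ppargc1a was at 169.7 UPM in the 427 nuclei with most UMIs from Myh4, 377.0 in the 241 with most from Myh1 and 653.8 (493.9 to 849.0) in the 22 with most from Myh2. Esrrg was at 192.6, 651.8 and 1062 UPM in the same order, and Esrra at 94.4, 194.4 and 256.9. All 3 genes were thus lowest in Myh4 and highest in Myh2 nuclei, for Esrra with overlapping intervals between Myh1 and Myh2. Esrrb had 1 UMI in the Myh4 nuclei (0.64 UPM), 45 in the Myh1 nuclei (44.6 UPM, 32.6 to 59.7) and 13 in the Myh2 nuclei (151.8 UPM, 80.8 to 259.5). Perm1 was at 8.29, 54.6 and 11.7 UPM, the last from 1 UMI. Ppargc1b was at 91.2, 172.6 and 163.5.

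In the AHRfl/fl-labelled library, 186 adult nuclei had most UMIs from Myh4 and 81 from Myh1. Esrrg was at 197.6 and 489.0 UPM and Ppargc1b at 147.4 and 289.7, so both were higher in the Myh1 nuclei there too. Esrrb had 2 UMIs in the Myh4 nuclei (2.05 UPM) and 5 in the Myh1 nuclei (10.3 UPM), and Perm1 had 4 (4.10 UPM) and 0. In Myh4 nuclei neither gene was thus apart between the libraries beyond counting error. In Myh1 nuclei both were, with Esrrb at 10.3 UPM (3.34 to 24.0) and 44.6 (32.6 to 59.7). Perm1 there was at 0 UPM (0 to 7.58) and 54.6 (41.1 to 71.0). Most of the UMIs behind the adult levels of both genes in the AHRmKO-labelled library came from Myh1 and Myh2 nuclei. Ppargc1a, at 244.7 (214.7 to 277.8) and 275.3 (230.7 to 326.1), and Esrra, at 53.3 and 65.7, had intervals that overlapped. Between the libraries, Esrrg in Myh4 nuclei was at nearly the same level (197.6 and 192.6 UPM). In Myh1 nuclei Esrrg was at 489.0 (428.8 to 555.2) and 651.8 (602.9 to 703.6), with intervals that did not overlap. Ppargc1a was at 244.7 and 169.7 in Myh4 nuclei and at 275.3 and 377.0 in Myh1 nuclei, values for which no alternative was run.

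**Figure D4:**
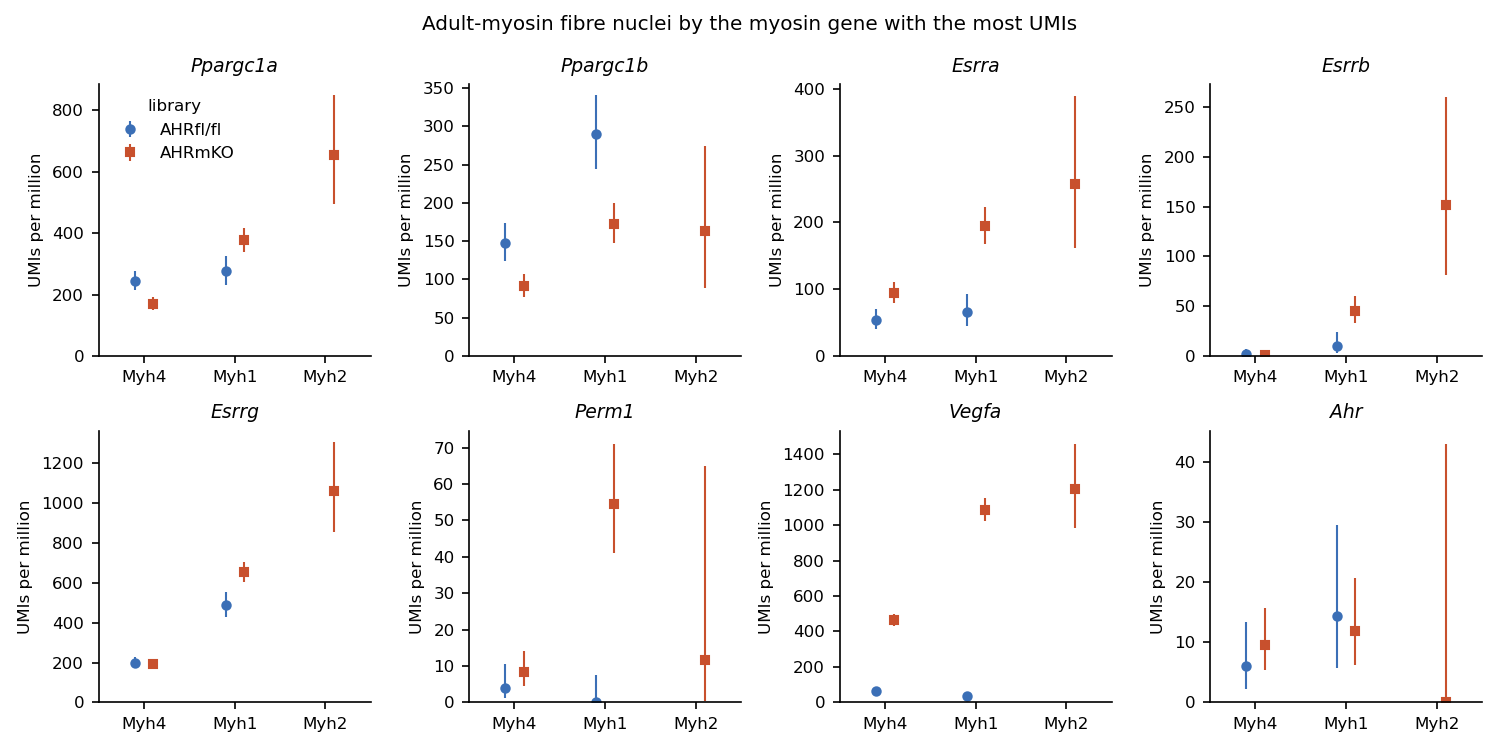
Level of the 6 genes, of Vegfa and of Ahr (UPM, 95% Poisson intervals) in adult-myosin fibre nuclei, split by the myosin gene with the most UMIs. Esrrg is higher in Myh1 than in Myh4 nuclei in both libraries (489.0 against 197.6 and 651.8 against 192.6), and Vegfa is far higher in the AHRmKO-labelled library for Myh4 and Myh1.

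Vegfa, whose transcription PGC-1α and the oestrogen-related receptors are known to raise in muscle, was at 24.9 UPM in fibre nuclei of the AHRfl/fl-labelled library and at 145.5 in the other (log2 ratio 2.52, 2.43 to 2.66). Outside fibres its log2 ratio was 1.02 (0.79 to 1.28) in satellite cell nuclei, 1.42 (1.16 to 1.69) in fibroblasts, 1.19 (0.77 to 1.62) in adipocytes and 1.05 in free RNA. It was 0.13 (-0.19 to 0.47) in leukocytes and 0.91 (-0.32 to 2.34) in endothelial nuclei, with intervals that hold 0. In adult nuclei it was at 53.7 UPM (42.5 to 66.9) and 717.7 (686.0 to 750.4), a ratio of 3.73, where Ppargc1a was at 253.6 and 261.8. In developmental nuclei it was at 20.9 and 34.1 (0.69), where Ppargc1a was at 107.4 and 42.1. With 5% or more fibre RNA the developmental ratio of Vegfa turned to -0.41, and adult Ppargc1a was at 148.8 and 314.6 UPM.

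Per nucleus, with each fibre nucleus thinned to 2000 UMIs, Pearson correlations of log(1 + UMIs) with Vegfa were taken within each library. They describe nuclei of 1 library, which share their depth and their free RNA and are not replicates. In the 3771 fibre nuclei of the AHRmKO-labelled library, r with Vegfa was 0.309 for Ppargc1a and 0.320 for Esrrg. Among 5673 genes ordered by their r, these took places 100 and 86. It was 0.167 for Perm1 and 0.157 for Esrrb, 0.001 for Esrra and -0.110 for Ppargc1b. In the 5144 fibre nuclei of the AHRfl/fl-labelled library, r lay between -0.010 and 0.033 for all 6. The highest, for Ppargc1a, took place 250 of 5673, and nuclei with 0, 1, 2 and 3 or more of its UMIs held Vegfa at 27.8, 34.0, 33.6 and 53.2 UPM with overlapping intervals.

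The values differed between fibre states, a difference that was not tested. Vegfa was seen in 67.0% of thinned adult nuclei of the AHRmKO-labelled library, against 6.12% of developmental and 6.63% of mixed ones. Ppargc1a was seen in 37.4% of its adult and 5.96% of its developmental nuclei. In the AHRfl/fl-labelled library Vegfa was seen in 4.79% of developmental and 4.71% of mixed nuclei. Counts this low limit r, so a value near 0 there does not show a lack of association. In the AHRmKO-labelled library, r in the 1241 developmental nuclei was -0.014 for Ppargc1a and -0.039 for Esrrg. In its 875 mixed nuclei r was 0.076 and 0.049. Those mixed nuclei held Vegfa at 35.6, 34.1 and 44.1 UPM for 0, 1 and 2 Ppargc1a UMIs. The 7 with 3 or more held 8 Vegfa UMIs, all in 2 nuclei. In the 693 adult nuclei of the AHRmKO-labelled library r was 0.237 for Ppargc1a (place 43) and 0.308 for Esrrg (place 13). Myh1 had 0.431 there (place 2) and Myh4 -0.344 (place 5673, the last). Adult nuclei with 0, 1, 2 and 3 or more Ppargc1a UMIs held Vegfa at 660.1, 934.9, 1338 and 1341 UPM (434, 169, 68 and 22 nuclei). For Esrrg the same steps gave 593.2, 1019, 1395 and 1262 UPM. By leading myosin the steps for Ppargc1a were 1051, 1500, 1554 and 1500 UPM in Myh1 nuclei, with no further difference from 1 UMI on. In Myh4 nuclei they were 493.4, 547.9 and 750.0 for 0, 1 and 2 UMIs, with neighbouring intervals overlapping, and 4 nuclei with 3 or more UMIs held 4 of Vegfa. The steps for Esrrg were 461.4, 709.1, 800.0 and 766.7 UPM in Myh4 nuclei and 1041, 1372, 1632 and 1340 in Myh1 nuclei. In Myh4 nuclei the intervals at 0 (411.6 to 515.7) and 1 Esrrg UMI (560.5 to 885.0) did not overlap. Split by leading myosin, r for Ppargc1a was 0.088 in Myh4 nuclei and 0.202 in Myh1 nuclei, and for Esrrg 0.159 and 0.173, each below the value over all adult nuclei. In adult nuclei of the AHRfl/fl-labelled library, where Vegfa was seen in 34 of 268 thinned nuclei against 464 of 693, r was 0.077 for Ppargc1a and -0.044 for Esrrg. Nuclei there without a Ppargc1a UMI held Vegfa at 67.0 UPM and those with any at 81.1. Adult nuclei without a Ppargc1a UMI in the AHRmKO-labelled library held 660.1. Before thinning, a Ppargc1a UMI was seen in 48.6% of adult nuclei of the AHRmKO-labelled library, against 37.4% after it. A count of 0 in a thinned nucleus thus does not show that Ppargc1a was absent from it.

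**Figure D5:**
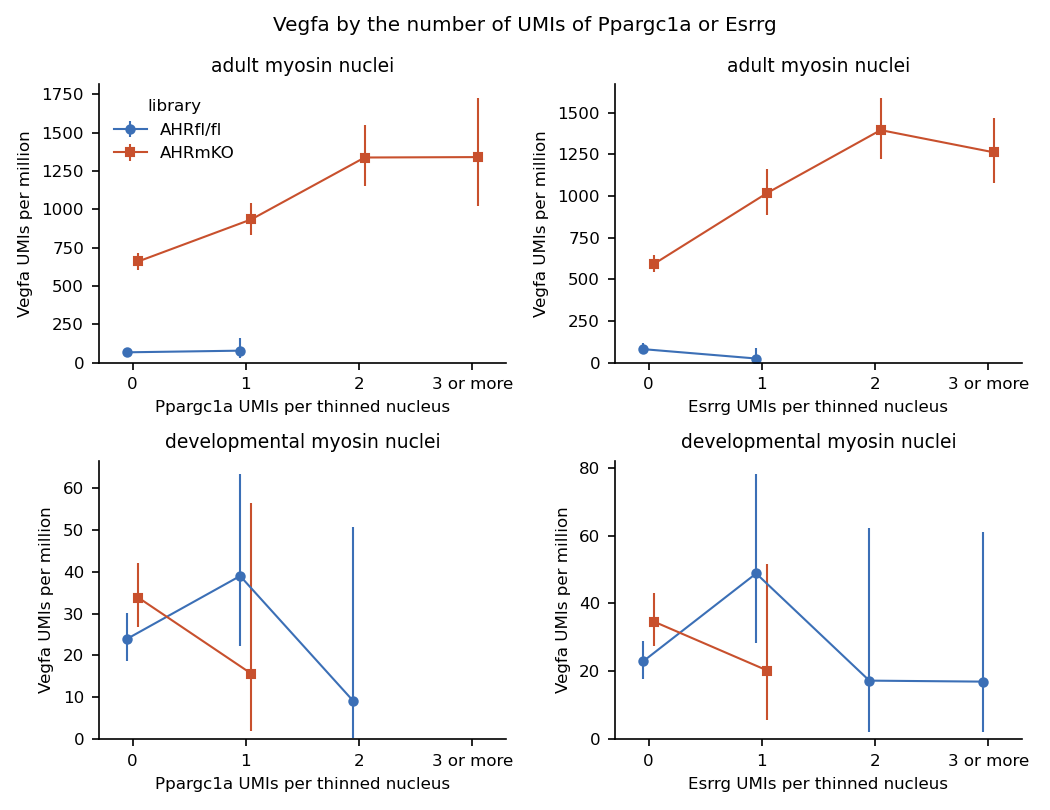
Vegfa (UPM, 95% Poisson intervals) in fibre nuclei thinned to 2000 UMIs, by the number of UMIs of Ppargc1a (left) or Esrrg (right) in the nucleus, for adult (top) and developmental (bottom) nuclei, drawn where at least 20 nuclei were found. In adult nuclei of the AHRmKO-labelled library, Vegfa goes from 660.1 to 1341 with Ppargc1a and from 593.2 to 1262 with Esrrg. Developmental nuclei of that library hold 33.8 and 34.6 at 0 UMIs and 15.6 and 20.2 at 1. The latter rest on 2 and 4 Vegfa UMIs, with overlapping intervals. Developmental nuclei of the AHRfl/fl-labelled library hold 24.0 and 22.9 at 0 UMIs, 39.0 and 48.9 at 1 and 9.09 and 17.2 at 2, also with overlapping intervals.

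The members were also set against each other across thinned fibre nuclei. Ppargc1a and Esrrg went together most, with r of 0.176 in the AHRfl/fl-labelled library and 0.291 in the other, and 0.204 and 0.119 within developmental nuclei alone. Ppargc1a had r of 0.055 and -0.044 with its sister Ppargc1b. By the mean r over both libraries, the 5 genes most like Ppargc1a were Mybpc1 (0.316), Trdn, Dmd, Filip1l and Cmya5, with Esrrg at place 16 of 5674. Those most like Esrrg were Mybpc1 (0.366), Dmd, Trdn, Ckmt2 and Filip1l, with Ppargc1a at place 23. Mybpc1 encodes a sarcomere protein of slow and some fast fibres and led both orders, while Trdn and Dmd are among the genes that chose the fibre nuclei.

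The other genes of the pathway differed in both directions in fibre nuclei, and the counts of each list stand against 7.91% of all genes higher and 16.4% lower. Of 30 partner receptors and co-regulators, 2 were at least 2-fold higher in the AHRmKO-labelled library and 1 lower, with a median log2 ratio of 0.30 against -0.07 over all genes. Kat2a, the acetyltransferase that modifies PGC-1α, was at 1.90, and Pprc1, the third PGC-1 family member, at 1.03. Ppara, the fatty acid receptor that PGC-1α coactivates, was at 0.96, and Mef2c, a factor on the Ppargc1a promoter, at -1.23. In adult nuclei 7 of these 30 were higher and 2 lower (median 0.31), against 10.1% and 14.9% of all genes, with Ppara at 14.3 and 161.6 UPM. In developmental nuclei 1 was higher and 1 lower (median 0.15), against 6.17% and 16.5% of all genes. Of 18 genes of upstream signalling, 3 were higher and 0 lower in fibre nuclei (median -0.10). Prkag3, the fast-muscle γ subunit of AMP kinase, was at 1.52 and Crtc2, a CREB coactivator, at 1.22.

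Of 40 mitochondrial and fatty acid targets, 1 was at least 2-fold higher and 5 lower, and 34 lay between (median 0.11). Polrmt, the mitochondrial RNA polymerase, was at 1.59 and Cpt1b, which admits fatty acids to mitochondria, at 0.92. Cox4i1 (-2.04), Cycs (-1.89) and Cox5b (-1.37), respiratory chain genes, were the lowest. In adult nuclei 8 of the 39 counted were higher and 7 lower (median 0.13), against 10.1% and 14.9% of all genes. There Ckmt2, the mitochondrial creatine kinase, went from 85.7 to 403.7 UPM, and Cpt1b from 30.6 to 86.4, while Cycs (-1.33), Cox4i1 (-1.29) and Cox5b (-1.51) were lower. In developmental nuclei 1 of the 40 was higher and 9 were lower (median -0.10), against 6.17% and 16.5% of all genes. Of 6 contractile and structural targets counted, 1 was higher, Eef1a2 at 1.36, and 0 lower. In adult nuclei 5 of the 6 were lower, among them Casq2 at -2.53 and Atp2a2, the slow calcium pump, at -1.86. In developmental nuclei 2 of the 6 were higher and 0 lower (median 0.07). Of 7 angiogenic and secreted targets, Vegfa was higher and Angpt2 (-3.31) and Spp1 (-2.78) were lower. In adult nuclei 2 of the 7 were higher and 4 lower, with a median of -1.15. In developmental nuclei 0 were higher and 3 lower, with a median of -0.14.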

How the data were processed

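Single-nucleus RNA was measured in 1 library per group on the 10x Chromium 3′ HT kit. Unnormalized UMI counts for every barcode were deposited by the authors, in the format of Cell Ranger version 4 per the file headers. The submitters' processing notes name Cell Ranger 7.0.1 and mm10; strand and intron settings are not given in the sources used here.

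Barcodes with 2000 or more UMIs were kept, and no doublet caller was run. Other classes needed at least 3 different markers and a minimum share of UMIs (0.15% to 2%). The fibre rule went before these, so a nucleus that met it and another rule stayed a fibre nucleus. Of the rest, nuclei that met 2 or more such rules (798 and 79) or none (1376 and 971), and classes under 50 nuclei, were set aside. Levels have exact Poisson intervals, and ratios exact conditional binomial intervals with 0.5 UPM added to the value. A gene was counted with 30 or more UMIs over both libraries and called at a 2-fold difference. The order of genes took those with 200 or more thinned UMIs in each library. Scripts in Python 3.11.15 (numpy 2.4.6, scipy 1.17.1) were tested on simulated data. Gene positions are from GENCODE M21, and windows from RefSeq.

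The members, lists and classes were chosen with earlier results of these data known, and the myosin thresholds, the split by leading myosin and the TGACG search after seeing the data. Named genes were the members, Vegfa, Ahr, up to 3 highest and 3 lowest genes of each list with 100 or more UMIs, and the 5 genes most like Ppargc1a and Esrrg; Trmt112, Gm36388, Ckmt2 in adult nuclei, Myh1 and Myh4 were added after their values were seen. Total depth, filters, free RNA, scaling and the thresholds were varied.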

Additional observations from a re-analysis of the deposited data

Results flagged for a closer look

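Barcodes of 200 to under 500 UMIs were given no class and may hold nuclei of low depth besides free RNA. They held more of every member in the AHRmKO-labelled library than in the one labelled AHRfl/fl, the only library to compare with. The log2 ratios were 0.37 for Ppargc1a, 1.04 for Ppargc1b, 0.42 for Esrra, 1.05 for Esrrb, 1.46 for Esrrg and 0.70 for Perm1. Of these 6 genes 3 were at least 2-fold higher, as were 10.3% of all genes there. For Ppargc1a and Esrrg this is the opposite direction to that in fibre nuclei, and for Ppargc1b too at the settings reported (-0.25), though not at 5% or more fibre RNA (0.094). It did not hold in barcodes of 1 to 100 UMIs for 4 members: Ppargc1a was at 42.3 and 25.6 UPM there, Ppargc1b at 113.8 and 88.7, Esrrg at 55.97 and 39.7, and Perm1 at 2.28 and 1.32 (5 and 3 UMIs).

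Esrrg had ratios of opposite sign in 2 states of fibre nuclei, 0.42 in adult and -1.38 in developmental nuclei. Ppargc1b had -0.25 in fibre and 0.15 in satellite cell nuclei. With 1 library per group neither difference was tested.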

How the results depend on the processing

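No paired analysis was possible because each group is 1 library, and for the same reason no replicate could be left out. Esrra was higher in the AHRmKO-labelled library under all 12 alternatives in fibre nuclei (0.99 to 1.43) and in adult nuclei (1.19 to 1.98), and Perm1 likewise (1.21 to 3.19 and 2.53 to 6.01). Ppargc1a and Esrrg were lower in fibre nuclei under all 12, while Ppargc1a in adult nuclei (-0.10 to 1.08) and Esrrb in fibre nuclei (-0.11 to 0.80) had both signs. The alternative that moved most values was a fibre share of 5%, which left 327 and 1804 fibre nuclei. Its log2 ratios in fibre nuclei were -1.002 for Ppargc1a, 0.094 for Ppargc1b, 1.43 for Esrra, 0.37 for Esrrb, -0.63 for Esrrg and 3.19 for Perm1. In adult nuclei they were 1.08, -0.11 (Ppargc1b), 1.77 (Esrra), 1.38 (Esrrg) and 6.01 (Perm1, with 0 UMIs in the AHRfl/fl-labelled library, so no bound). It turned Ppargc1b to 0.046 in mixed and 0.25 in developmental nuclei, Vegfa to -0.41 in developmental nuclei, and, in nuclei with few myosin UMIs (7 and 31), Ppargc1a to 0.90 and Esrrg to 2.65. Adult over developmental in the AHRfl/fl-labelled library turned to -0.99 for Ppargc1a and -0.97 for Esrrg. The count of genes 2-fold lower fell to 1451. At 2% Esrrg was at -0.90. Ppargc1a in fibre nuclei was at -0.90 with 4000 UMIs or more, -0.92 without the 5% of barcodes with the most UMIs, -0.70 with at most 5% mitochondrial UMIs, -0.73 without mitochondrial genes, Gm42418 and AY036118 in the total, and -0.48 with the 4 myosin states weighted equally. Esrrg was at -0.66, -0.71 and -0.30 under the last 3 of these, and at -0.72 centred on the median of all genes. Ppargc1b was at -0.31 without the top barcodes, -0.17 without those genes in the total, -0.19 centred and -0.12 with equal weights, and in mixed nuclei at 0.026 centred. With equal weights Esrra was at 1.16 and Esrrb at 0.80. With free RNA subtracted Esrra was at 1.22 and 3566 genes were 2-fold higher, and in adult nuclei Ppargc1a was at 0.44, Ppargc1b at -1.01 and Esrrg at 0.77. With adult from a share of 0.9, adult nuclei gave 0.44 for Ppargc1a, -0.33 for Ppargc1b, 1.98 for Esrra, 3.62 for Esrrb and 1.24 for Esrrg. Esrrg there was at 0.24 with 1000 UMIs or more and 0.72 without the top barcodes. Thinning put Esrrb at 5.32 in adult nuclei, over 0 UMIs in the AHRfl/fl-labelled library, so the size is set by the 0.5 UPM added (another random draw left 2 nuclei with a UMI there). It put Ppargc1b at 0.065 in leukocytes and 0.040 in fibroblasts. In developmental nuclei of the AHRmKO-labelled library, r with Vegfa turned to -0.014 for Ppargc1a, -0.039 for Esrrg, -0.017 for Esrrb and -0.012 for Perm1, and in adult nuclei to 0.012 for Ppargc1b. Where no count of nuclei is given, the cause was not tested. Equal weights, stricter marker shares and the 0.9 share were chosen after seeing the data. Depth limits Perm1 and Esrrb most, since 4 and 7 UMIs stand behind their adult levels in the AHRfl/fl-labelled library.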
